A study of Mus musculus with 9 samples.

Results

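Histones are the proteins around which DNA is wound, and this account follows their genes across pools of mature mouse oocytes. A gene was included if the deposited tables listed it as protein-coding and its name began with Hist1h, Hist2h, Hist3h, Hist4h, H2af or H3f3, or was H1foo or H1f0. The rule uses names and gene type and no measured value. It took 72 of the 30153 genes in the tables, of which 18483 are protein-coding. Of the 72, 61 are replication-dependent histone genes (6 for the linker histone H1, 15 for H2A, 17 for H2B, 10 for H3 and 13 for H4). The other 11 are replacement histone genes, 7 for H2A variants, 2 for H3.3 and 2 for H1. GENCODE release M21 holds 80 protein-coding genes that meet the rule, and the 8 outside the tables were not analysed here.

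The libraries came from oocytes at metaphase of the second meiotic division (MII), taken from Sycp3CreERT2/+; Rosa26nT-nG/+ mice aged 4 weeks on a mixed genetic background. All groups share this genotype: a tamoxifen-inducible Cre expressed from Sycp3, a gene of meiotic chromosome axes, and a reporter that switches from red to green nuclear fluorescence once Cre has acted. Oocytes were collected 13 h after hCG, given 48 h after PMSG (5 IU of each hormone), were stripped of cumulus cells and were sorted by eye into 3 groups, named GFP High, GFP Low and RFP, each with 3 replicate pools. Pools held 15 to 16 oocytes in GFP High, 49 to 57 across GFP Low and 87 to 100 across RFP, so pool size and group cannot be told apart. The labels do not say that the pools came from separate animals, so the spread between replicates may be partly technical. Library totals ran from 19381677 to 27746256 counts, and 1 count per 1000000 counts (CPM) in the smallest library stands for 19.4 reads. All 13 oocyte marker genes checked had counts in each of the 9 libraries.

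In dividing cells, replication-dependent histone genes are transcribed in S phase, and their mRNAs end in a conserved stem-loop, bound by the protein SLBP, instead of a poly-A tail. Replacement histones are made outside S phase from polyadenylated mRNAs and enter chromatin independently of DNA replication. Growing oocytes store histone mRNAs for the first divisions of the embryo, and H1foo is their own linker histone. These libraries were made from RNA captured by its poly-A tail, so a transcript without a tail is under-represented, and a level below is the level in captured RNA. A lower level in a pool cannot be told apart from fewer oocytes carrying the transcript or from less of it per oocyte.

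The stem-loop is shown here because its presence differs between the classes. The 16 bases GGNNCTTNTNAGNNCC (N is any base) were searched on the transcript strand, after the stop codon, in every coding transcript of each gene in GENCODE M21. They were present in 43 of 61 replication-dependent genes, beginning 22 to 55 bases after the stop codon (median 32), and in 1 of 11 replacement genes. Among all protein-coding genes of the annotation, 0.621% have a transcript with a match at any position. The 8 members with a match that were most abundant per kilobase are printed below with the 5 bases on either side, from 5′ to 3′, with the 16 matching bases in capitals.
Hist1h2bk: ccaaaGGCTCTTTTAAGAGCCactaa
Hist1h2bj: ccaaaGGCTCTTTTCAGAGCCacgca
Hist1h4c: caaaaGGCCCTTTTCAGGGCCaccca
Hist1h3e: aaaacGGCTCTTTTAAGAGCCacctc
Hist1h3f: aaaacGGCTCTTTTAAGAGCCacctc
Hist1h2ag: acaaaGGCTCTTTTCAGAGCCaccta
Hist1h3g: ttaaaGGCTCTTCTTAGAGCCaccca
H2afx: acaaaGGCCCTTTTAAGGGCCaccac
The core of Hist1h2bj, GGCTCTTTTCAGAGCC, was the most frequent and stood in 23 replication-dependent genes coding for H1, H2A, H2B or H3. The core of Hist1h4c, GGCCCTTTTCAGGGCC, stood in 7, and all 7 code for H4. The replacement gene with a match was H2afx, which codes for the H2A variant phosphorylated at DNA breaks. Its stem-loop begins 47 bases after the stop codon, and its annotated transcript runs on for 822 bases beyond it.

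Of the 18 replication-dependent genes without a match, 13 are annotated with at most 20 bases after the stop codon, too few to show one. Hist1h2ba and Hist1h2aa, which are among the most abundant members, are annotated with 0 bases after the stop and belong to these 13. The other 5 have longer annotated ends and no match: Hist1h1a with 48 bases, Hist1h2bc with 742, Hist1h2bq and Hist1h2br with 823 each, and Hist2h2be with 2192. A missing match says only that these letters are not in the annotated transcript. Among the genes with a stem-loop, 22 are annotated for more than 100 bases past it, with a median level of 6.59 CPM per kilobase. For at most 100 bases 21 are, with a median of 4.50. Without division by length the medians were 16.4 CPM for the longer ends and 2.07 CPM for the shorter. The annotated length that defines the 2 sets also enters the level per kilobase, so neither scale compares them free of length. The levels of both sets ran from 0.0897 to 275 CPM per kilobase for the longer ends and 0.117 to 586 for the shorter. The poly-A signal AATAAA stood in the last 50 bases of any coding transcript of 13 of 61 replication-dependent and 8 of 11 replacement genes. Of all protein-coding transcripts 40.5% had it, a share per transcript and not per gene. Genes annotated with at most 20 bases after the stop have mostly coding sequence in that window. Among the genes with a stem-loop, it stood in 9 of the 22 with longer ends and 1 of the 21 with shorter.

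The replication-dependent genes lie in clusters. On GRCm38, 54 of the 61 belong to the Hist1 cluster on chromosome 13, between 21715763 and 23934851. The 4 Hist2 members lie on chromosome 3, between 96220361 and 96263311, the 2 Hist3 members on chromosome 11 and Hist4h4 on chromosome 6. The 72 genes contain 12 pairs that start back to back with fewer than 500 bases between their annotated starts. In each of the 12 an H2A gene faces an H2B gene across 175 to 305 bases. Of the 12 most abundant replication-dependent genes, 7 belong to such a pair. Within a pair, the more abundant gene exceeded its neighbour by 1.36 to 175 times per kilobase. The value of 175 belonged to Hist2h2ac over Hist2h2be, which had counts only in GFP High replicate 1, so this upper end is uncertain. Across the pairs, the 3 most abundant H2A genes (Hist1h2aa, Hist1h2ah and Hist1h2ag) faced the 3 most abundant H2B genes (Hist1h2ba, Hist1h2bk and Hist1h2bj). This was noticed after the levels were seen, and Hist1h2bk and Hist1h2bj, at 586 and 580 CPM per kilobase, were not separated. Only 10.5% of the 100-base stretches of Hist1h2ah and 23.8% of those of Hist1h2ag occur in no other gene, so their levels are uncertain. Whether paired genes share their level was not tested. The pair closest in level was Hist1h2ba and Hist1h2aa, at 754 and 554 CPM per kilobase, with 305 bases between their annotated starts. Both annotations begin at the start codon, so any transcribed bases before it lie within these 305. In another pair, Hist1h2bj stood at 580 and Hist1h2ag at 34.5.

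The promoter window of Hist1h2aa is printed because it covers most of the region between this gene and Hist1h2ba, and both were abundant. The annotated start of Hist1h2ba, at 23934156, lies outside the window. The window runs past the annotated start of Hist1h2aa, at 23934462. It is taken from RefSeq on GRCm38.p6, on the plus strand, which is the strand of Hist1h2aa, at chr13:23934187-23934486. Capitals mark TATAAA and CCAAT on either strand, so that TTTATA and ATTGG are matches on the minus strand.
Hist1h2aa: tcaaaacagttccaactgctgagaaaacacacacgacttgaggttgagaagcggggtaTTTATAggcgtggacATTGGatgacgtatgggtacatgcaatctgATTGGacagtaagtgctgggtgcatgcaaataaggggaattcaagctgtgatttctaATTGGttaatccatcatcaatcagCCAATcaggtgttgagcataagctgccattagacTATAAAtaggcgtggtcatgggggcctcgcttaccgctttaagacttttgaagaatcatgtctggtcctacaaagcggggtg
The window holds 1 TATAAA on each strand, at base 219 toward Hist1h2aa and at base 59 toward Hist1h2ba. It holds 1 CCAAT on the plus strand and 3 on the minus strand. Promoter windows of 300 bases were matched for 64 members. TATAAA was present, on either strand, in 33 of 55 replication-dependent and 1 of 9 replacement windows, against 14.2% of all 27025 windows. CCAAT was present in 46 of 55 and 7 of 9, against 37.9%. A match describes the letters and is not a measured binding site.

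Histone mRNAs ranged over more than 4 orders of magnitude per kilobase in these oocytes, and a few genes held most of the signal. H1foo (chromosome 6, 115944938 to 115950236, plus strand, GRCm38) was the most abundant member and the 16th most abundant of all genes per kilobase, at a mean of 1095 CPM per kilobase over the 9 libraries. It was followed by Hist1h1a at 770, Hist1h2ba at 754, Hist1h2bk at 586, Hist1h2bj at 580 and Hist1h2aa at 554, all replication-dependent by name. A level per kilobase depends on the annotated length, and Hist1h2ba (384 bases) and Hist1h2aa (390 bases) are annotated from start codon to stop codon only. The most abundant replacement core histone gene, H3f3b (chromosome 11, 116021912 to 116027962, minus strand), stood at 298, ahead of Hist1h4c at 275 and Hist1h2ah at 211. At the other end, Hist1h2br and Hist2h2be each had a mean of 0.01 CPM per kilobase. The 6 replication-dependent genes with the most counts (Hist1h1a, Hist1h2ba, Hist1h2bk, Hist1h2bj, Hist1h4c and Hist1h2aa) held 65.0% to 70.0% of the counts of the 61 in every library. The plot of levels per kilobase shows how far the points of neighbouring genes overlap: the order among Hist1h1a and Hist1h2ba, and among Hist1h2bk, Hist1h2bj and Hist1h2aa, lies within their spread.

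**Figure D1:**
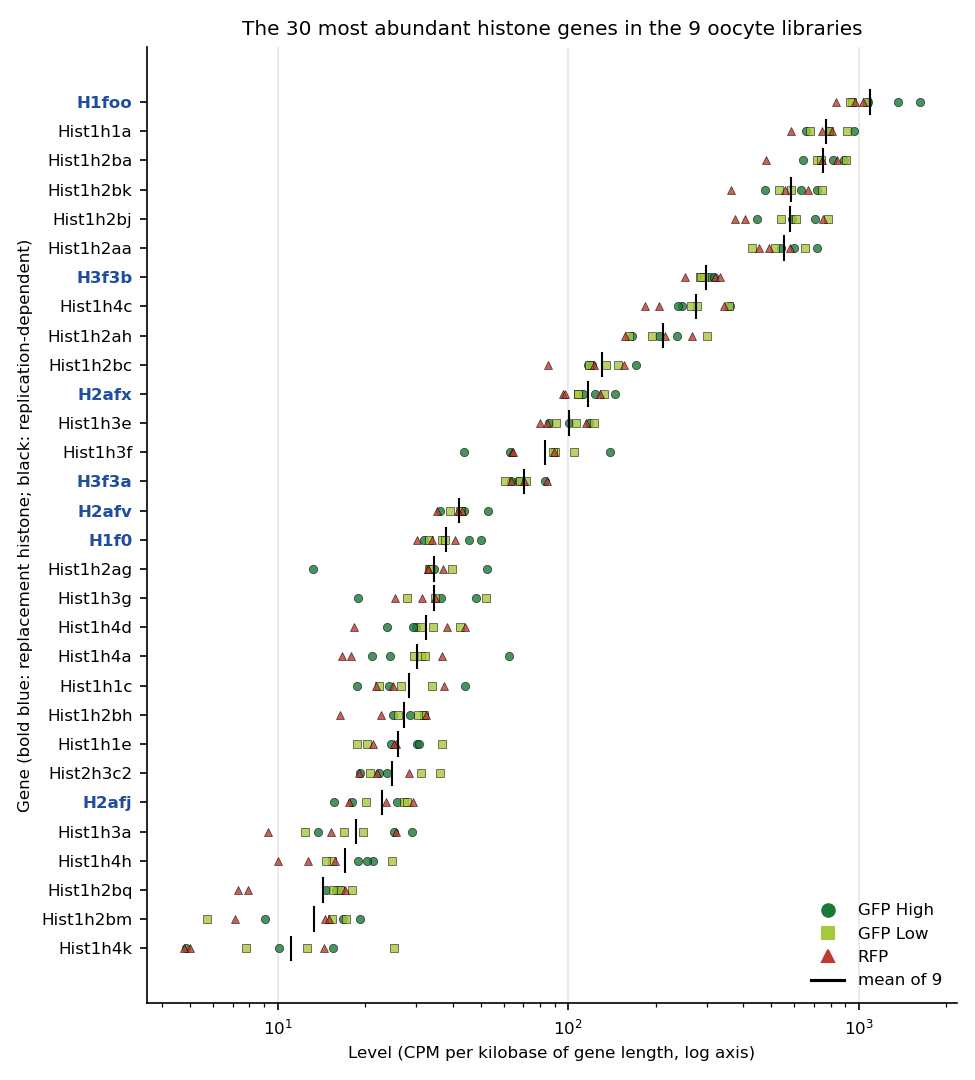
Levels of the 30 most abundant histone genes, in CPM per kilobase of gene length on a log axis, with 1 point per library (circles GFP High, squares GFP Low, triangles RFP) and a bar at the mean of 9. H1foo leads at 1095, and points of the 3 groups are interleaved for most genes.

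Among the linker histones, 2 genes carried nearly all of the signal. H1foo, the oocyte linker histone, and Hist1h1a together made up 94.3% to 95.9% of the H1 signal per kilobase in each library. H1foo alone made up 47.8% to 60.3%. H1f0, a replacement linker histone known from resting and differentiated cells, stood at 37.8 CPM per kilobase, Hist1h1c at 28.3 and Hist1h1e at 26.0. Hist1h1t, the linker histone of spermatocytes, was near the limit of detection, with 0.54 to 1.14 CPM and 12 to 31 counts per library.

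Among the H2A and H2B genes the germ-cell pair stood high. Hist1h2aa and Hist1h2ba code for the variants TH2A and TH2B, first known from testis. Hist1h2aa had 234, 280 and 211 CPM across GFP High, 167, 202 and 256 across GFP Low and 192, 226 and 176 across RFP. Hist1h2ba had 342, 314 and 247 CPM across GFP High, 276, 284 and 347 across GFP Low and 286, 323 and 185 across RFP. The groups overlapped for both genes, with the lowest Hist1h2ba value in RFP replicate 3. H2afx stood at 117 CPM per kilobase. H2afv and H2afz, which code for forms of H2A.Z, stood at 42.0 and 9.08, and H2afj at 22.8. The macroH2A genes were low, with means of 11.2 CPM for H2afy and 3.17 CPM for H2afy2, and H2afb1 had counts in 1 library only, 6 in RFP replicate 1.

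Among the H3 genes, the H3.3 genes H3f3a and H3f3b together gave 51.0% to 64.5% of the H3 signal per kilobase. H3f3b had 867, 912 and 943 CPM across GFP High, 843, 871 and 850 across GFP Low and 951, 993 and 750 across RFP, a narrow range in which the RFP libraries were both highest and lowest. The replication-dependent H3 signal came mainly from Hist1h3e (100 CPM per kilobase), Hist1h3f (83.1) and Hist1h3g (34.5). H4 has no replacement gene in the list, and Hist1h4c led its 13 genes, followed by Hist1h4d at 32.4 CPM per kilobase.

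Replication-dependent and replacement histone genes took nearly equal shares of the reads, but differed per length. Replication-dependent genes held 0.202% to 0.335% of a library's counts and replacement genes 0.229% to 0.361%. The ratio of the first to the second was 0.825 to 1.27 in counts and 2.27 to 3.60 in summed CPM per kilobase. The median length of the replication-dependent genes was 572 bases. GFP Low replicate 3 had the highest ratio on both scales and GFP High replicate 3 the lowest.

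By group, the replication-dependent share was 0.280%, 0.329% and 0.232% across GFP High (mean 0.281% ± 0.0485, SD, n = 3). It was 0.247%, 0.272% and 0.335% across GFP Low (0.284% ± 0.0453, SD, n = 3) and 0.236%, 0.306% and 0.202% across RFP (0.248% ± 0.0533, SD, n = 3). The groups overlapped, and their means lay closer together than 1 SD. The share of the 9 replacement core genes was 0.142%, 0.155% and 0.143% across GFP High, 0.134%, 0.141% and 0.144% across GFP Low and 0.152%, 0.158% and 0.123% across RFP, again overlapping. The 2 replacement linker genes took 0.170%, 0.206% and 0.138% across GFP High, above the 0.119% to 0.136% of GFP Low and the 0.107% to 0.133% of RFP, and H1foo supplied most of that share. The plot of class shares shows this as the panel in which the GFP High points stand above the other groups.

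**Figure D2:**
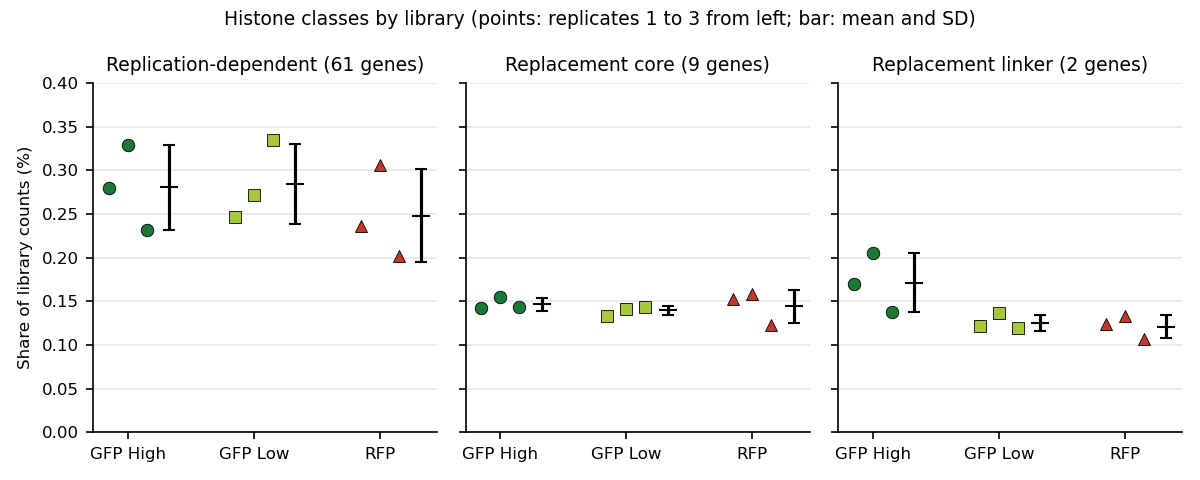
Share of all counts of a library (%) in 3 histone classes, with 1 point per library and the mean and SD (n = 3) beside each group. Replication-dependent and replacement core shares overlap between groups. The replacement linker share is 0.138% or more in GFP High and 0.136% or less in the other 6 libraries.

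Between 48 and 59 of the 72 genes reached 1 CPM in a library: 53, 48 and 50 across GFP High, 51, 48 and 54 across GFP Low, and 55, 59 and 48 across RFP. 43 genes reached it in all 9 libraries and 8 in none. GFP High replicate 2 had 17 of the 72 at 0 counts, where the other 8 libraries had 2 to 8. The same library had 27.4% of the 8061 genes with a mean of 0.3 to 10 CPM at 0, against 1.55% to 11.96% in the others, so zeros were more frequent there for genes of low level in general. Among histone genes of that level, 10 of 32 were at 0 in GFP High replicate 2. A count of 0 allows up to 3 counts in that library.

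Some weakly detected replication-dependent genes varied strongly between libraries, and these were picked after their values were seen. Hist1h1b had 0, 0 and 0 counts across GFP High, 3, 22 and 2 across GFP Low and 34, 56 and 0 across RFP. In the authors' deposited table its p-value for GFP High against RFP was 0.000818 and its adjusted p-value 0.193, and the low-count filter of the present test left it out of both comparisons with GFP High. Hist2h2ac had 28, 0 and 5 counts across GFP High, 32, 14 and 19 across GFP Low and 106, 71 and 5 across RFP. Hist1h2ab had 22, 0 and 0, then 6, 4 and 17, then 54, 33 and 3. All 3 genes were at or near 0 in GFP High replicate 2 and lowest of RFP in replicate 3. Counts of Vcan, a matrix gene of cumulus cells, were 287, 0 and 21 across GFP High, 229, 9 and 51 across GFP Low and 196, 341 and 7 across RFP, so its lowest libraries in these groups were the same ones. The 20 cumulus and granulosa markers, all in the tables, summed to 113 to 219 CPM across GFP High, 142 to 161 across GFP Low and 135 to 208 across RFP. Of the 20, 7, 14 and 10 were at 0 in the GFP High libraries, 3, 8 and 6 across GFP Low and 3, 4 and 9 across RFP. Nr5a2 alone held 62.9% to 89.2% of these sums, with 2020 to 4328 counts per library. The other 19 markers summed to 60.0, 12.8 and 14.3 CPM across GFP High, 56.5, 15.4 and 29.6 across GFP Low and 31.6, 77.1 and 19.3 across RFP, so GFP High replicate 1, GFP Low replicate 1 and RFP replicate 2 were high. Tnfaip6, a gene of the expanding cumulus, had 197, 0 and 3 counts across GFP High, 129, 7 and 15 across GFP Low and 28, 249 and 0 across RFP. Ptx3, Inhba, Ptgs2 and Inha, chosen like Tnfaip6 after the counts were seen, also had their highest count in RFP replicate 2, and had 88 to 159 counts in GFP High replicate 1. Others of the 20 went otherwise: Kitl was highest in RFP replicate 3 (71 counts), Fshr in GFP Low replicate 3 (57) and Cyp11a1 in RFP replicate 1 (85). Lhcgr had 46 counts in GFP High replicate 2 and 0 in GFP High replicate 1, and Star had 42 and 11. Foxl2, which defines granulosa cells, had at most 12 counts in any library and 0 in all GFP High libraries, and Pgr had 2 counts in RFP replicate 2 and 0 elsewhere. The part of cumulus RNA in these genes was not tested.

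The comparison of GFP High with RFP asks whether histone mRNAs differ between oocytes sorted as strongly green and oocytes sorted as red. H1foo had 1633, 1954 and 1290 CPM across GFP High, 1140, 1285 and 1123 across GFP Low and 1167, 1243 and 1006 across RFP. All 3 GFP High libraries stood above all 6 others. Of all genes tested, 4.75% had all 3 GFP High libraries above those of RFP and 4.78% above those of GFP Low. The share of all genes above both groups was not counted. The log2 fold change of H1foo was 0.53 (SE 0.14) with an unadjusted p of 0.00418 and an adjusted p of 0.997 (edgeR quasi-likelihood test, Benjamini-Hochberg over 14829 genes), so it did not pass the threshold of 0.05. In the authors' deposited table its adjusted p-value was 0.142. The estimate was positive in all 14 alternatives, from 0.36 to 0.67. Only the fit with no filter on low counts called it, with an adjusted p of 0.002, where the highest adjusted p of an alternative was 1.00. The 13 oocyte markers as a list summed to 11128 to 11962 CPM across GFP High, 10387 to 11039 across GFP Low and 10657 to 11177 across RFP. Whether the general level of oocyte transcripts had a part in the H1foo difference was not tested.

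None of the 61 histone genes tested in GFP High against RFP passed, against 0.0135% of all genes tested (2 genes). H1foo was the only member with an unadjusted p under 0.05 (1.64% of the members tested, beside 4.09% of all genes), and DESeq2 and limma-voom called 0 members as well. Of the 61, 41 had a positive estimate, with a median of 0.15 (log2), beside a median of -0.0056 over all genes. Without RFP replicate 3 the median of the members was -0.07. The next smallest p-values belonged to Hist1h2aa (log2 fold change 0.30, SE 0.14) and Hist1h4h (0.67, SE 0.31). Hist1h4h, an H4 gene, had 8.92, 10.02 and 9.58 CPM across GFP High and 5.99, 7.42 and 4.71 across RFP. Of the members, 2 (H1foo and Hist1h4h) had all 3 GFP High libraries above all 3 RFP libraries, beside 4.75% of all genes. The 1 member with all 3 below was H2afy2, beside 7.28% of all genes. H2afy2 had 3.05, 0 and 2.83 CPM in GFP High against 4.05, 3.09 and 4.05 across RFP, a log2 fold change of -0.92 with an SE of 1.11. Hist1h2bq (0.56, SE 0.31), H2afx (0.25, SE 0.15) and Hist2h2ac (-2.52, SE 1.47) had larger p-values still.

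**Figure D3:**
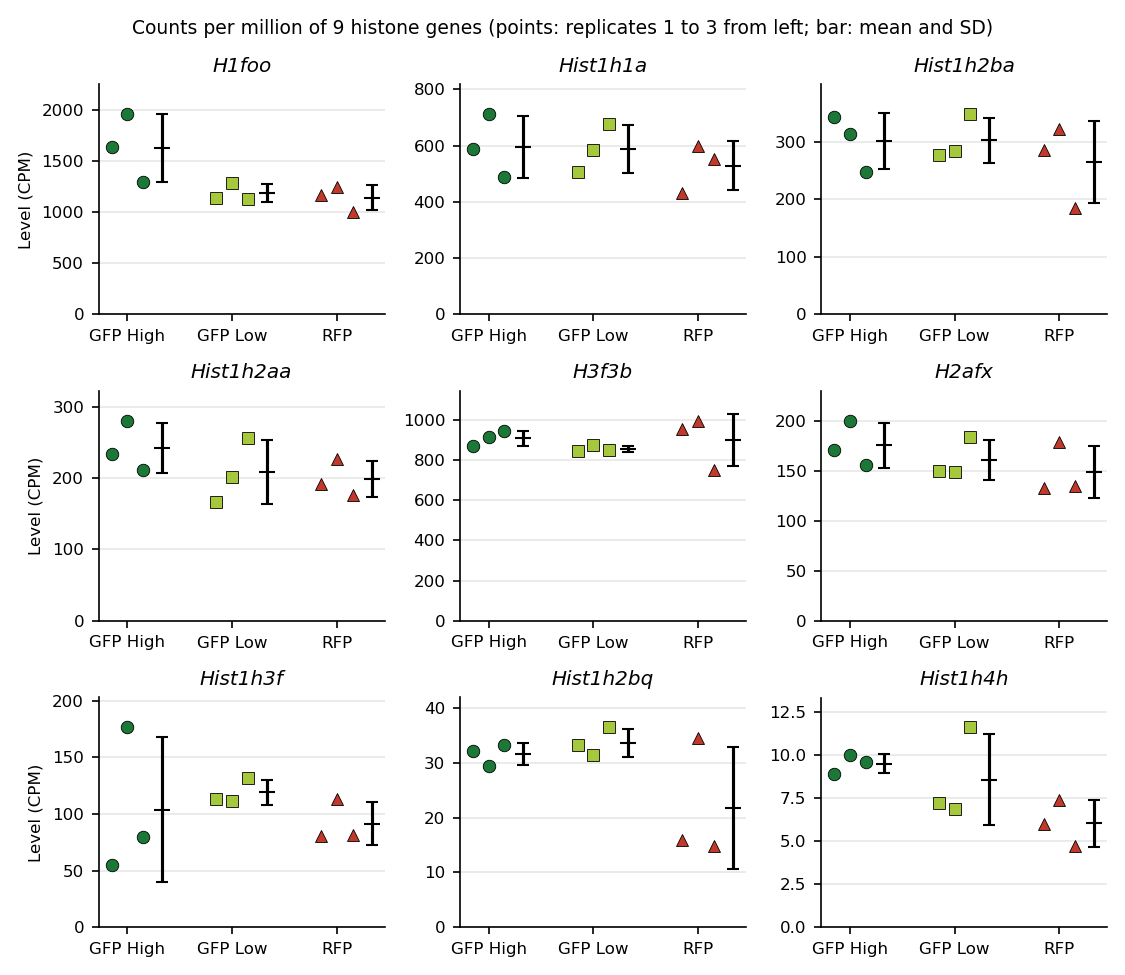
CPM of 9 histone genes in each library, with the mean and SD (n = 3) beside each group and axes that start at 0. H1foo is the panel where the 3 GFP High points, 1290 to 1954, stand above all others. For Hist1h2bq, RFP replicates 1 and 3 stand at 15.9 and 14.7 and the other 7 libraries at 29.5 or more.

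In GFP Low against RFP, which compares weakly green with red oocytes, none of 62 histone genes tested passed, against 0.0197% of all genes tested (3 genes). An unadjusted p under 0.05 was found for 2, or 3.23%, beside 2.62% of all genes, and DESeq2 and limma-voom called 0. Hist1h3f, an H3 gene (chromosome 13, 23544052 to 23545312, plus strand), had 114, 112 and 132 CPM across GFP Low and 80.5, 113 and 81.4 across RFP. Its log2 fold change was 0.39 (SE 0.13, unadjusted p 0.0118, adjusted p 1.00 with edgeR), and RFP replicate 2 fell among the GFP Low values. Within GFP High, Hist1h3f ranged from 55.2 to 176 CPM, with 79.8 in the remaining library, and so covered the values of the other groups.

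Hist1h2bq, an H2B gene (chromosome 13, 21806612 to 21810197, minus strand), had 33.1, 31.3 and 36.4 CPM across GFP Low, 32.1, 29.5 and 33.3 across GFP High, and 15.9, 34.5 and 14.7 across RFP. Its log2 fold change of GFP Low over RFP was 0.64 (SE 0.26, unadjusted p 0.0287, adjusted p 1.00 with edgeR). Without the filter on low counts its adjusted p was 0.0281, where the highest of an alternative was 1.00. RFP replicate 2 lay inside the range of the GFP libraries, so the difference rested on RFP replicates 1 and 3. Only 5.16% of the 100-base stretches of Hist1h2bq occur in no other gene, and it shares most of them with Hist1h2br. How reads were divided between these copies is not known, so the value of either is uncertain.

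The members' median in GFP Low against RFP was 0.07, beside -0.0041 over all genes, with 40 of 62 estimates positive. Without RFP replicate 3 it was -0.05, without GFP Low replicate 3 it was -0.03, and without RFP replicate 2 it was 0.27, with 17 of 62 (27.4%) at an unadjusted p under 0.05, beside 3.19% of all genes in that fit, and 0 called. Hist1h4n (4.28, 4.07 and 2.99 CPM across GFP Low, 2.96, 2.38 and 1.34 across RFP) was the 1 member with all GFP Low libraries above all RFP libraries, beside 3.38% of all genes. 0 members had all 3 below, beside 4.34%. Hist1h4h (0.52, SE 0.27), Hist1h4k (0.94, SE 0.50) and Hist1h2ab (-1.72, SE 0.91) followed by p-value. The 10 replacement genes tested ranged from -0.11 for H3f3a to 0.12 for H2afx.

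**Figure D4:**
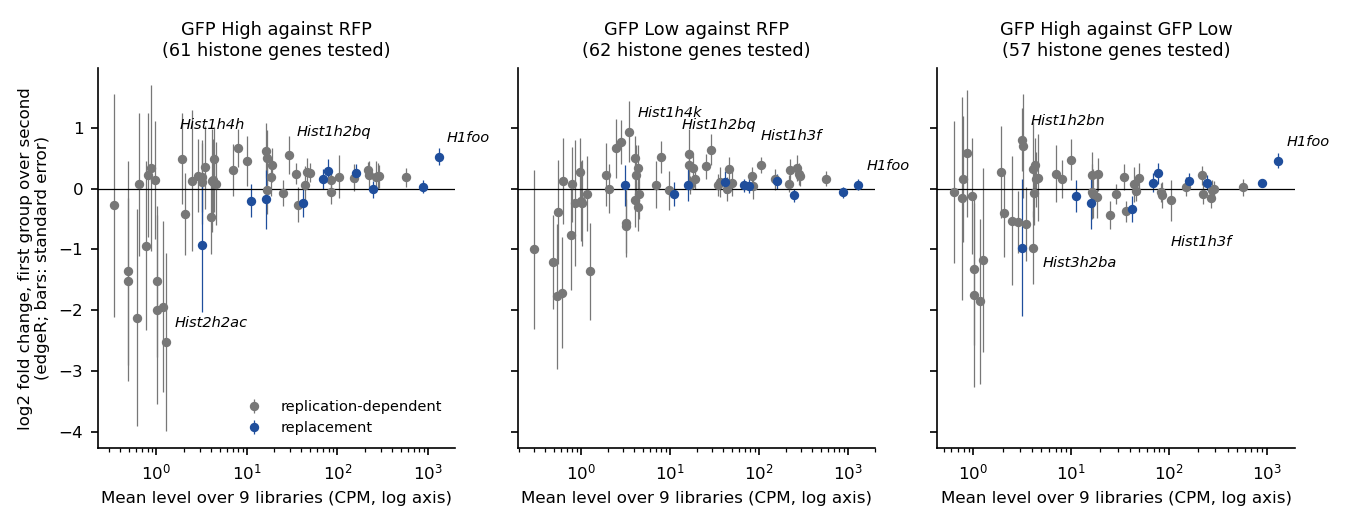
log2 fold change of each tested histone gene with its standard error (edgeR) against its mean level over 9 libraries in CPM (log axis), for the 3 comparisons, with replication-dependent genes in grey and replacement genes in blue. Standard errors widen toward low levels: in GFP High against RFP their median is 0.20 for members at 20 CPM or more, 0.41 from 5 to 20, 0.69 from 1 to 5 and 1.38 below 1, and H1foo, the rightmost point, stands at 0.53, 0.06 and 0.46.

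In GFP High against GFP Low, which sets the green groups against each other, none of 57 histone genes tested passed, against 0% of all genes tested, and DESeq2 and limma-voom called 0 members too. Of the members tested, 1.75% had an unadjusted p under 0.05, beside 3.77% of all genes, and H1foo was again the only one (log2 fold change 0.46, SE 0.13, unadjusted p 0.00517, adjusted p 0.998 with edgeR). This comparison uses the same GFP High libraries as the comparison with RFP. Its estimate lay between 0.29 and 0.60 over 14 alternatives, and the fit with no filter on low counts gave an adjusted p of 0.00122, where the highest of an alternative was 1.00. The members' median was -0.05, beside -0.0048 over all genes, and turned positive without GFP High replicate 3 (0.12) or without GFP Low replicate 3 (0.11).

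Of the other replacement genes, H3f3b differed between the green groups by 0.09 (SE 0.06), H3f3a by 0.10 (SE 0.12) and H2afv by 0.10 (SE 0.15) on the log2 scale. H1f0 differed by 0.25 (SE 0.17) and H2afx by 0.13 (SE 0.13). Estimates were negative for H2afy (-0.11, SE 0.26), H2afz (-0.24, SE 0.41) and H2afy2 (-0.97, SE 1.13). H1foo and Hist1h2bn had all GFP High libraries above all GFP Low libraries, beside 4.78% of all genes. Hist1h4d, Hist1h2ai and Hist1h4n had all of them below, beside 6.71%. Hist1h4d had 34.0, 33.2 and 27.1 CPM across GFP High and 39.0, 35.6 and 48.1 across GFP Low (log2 fold change -0.37, SE 0.18, unadjusted p 0.0615, adjusted p 0.998 with edgeR). In RFP it had 43.6, 50.1 and 20.8, which covered both ranges. Hist2h3c2 (-0.44, SE 0.23), Hist3h2ba (-0.97, SE 0.60), H2afj (-0.34, SE 0.21) and Hist1h2bn (0.80, SE 0.52) came next by p-value.

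Within a group, many histone genes were high or low in the same library. Of the 25 replication-dependent genes with a mean of at least 5 CPM, 22 were highest of the RFP libraries in replicate 2, and 20 were lowest in replicate 3. In GFP Low, 21 of the 25 were highest in replicate 3. In GFP High, 15 were highest in replicate 2 and 17 lowest in replicate 3. Over all 9243 genes at that level, each library was the highest of its group for 30.5% to 39.0% of genes. The median coefficient of variation of the 25 was 19.97% across GFP High, 18.2% across GFP Low and 27.1% across RFP, beside 17.5%, 9.50% and 10.5% for all genes at that level. The 9 replacement genes at 5 CPM or more had 18.8%, 7.49% and 15.6%. Of these 9, 6 were highest of RFP in replicate 2 and 7 were lowest in replicate 3. In GFP High, 7 of them were highest in replicate 2 and 6 lowest in replicate 3. In GFP Low, 4 were highest in replicate 2 and 4 in replicate 3.

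Short genes outside the histone list were mostly highest and lowest in the same RFP and GFP High libraries as the histone genes. The 25 replication-dependent genes were not all short: Hist1h1d is annotated with 7425 bases and Hist4h4 with 2863. The 27 protein-coding genes of at most 600 bases that are not histone genes and have a mean of at least 5 CPM, a set chosen after the values above were seen, were highest of RFP in replicate 2 for 18 and lowest in replicate 3 for 22. In GFP High, 15 were highest in replicate 2 and 17 lowest in replicate 3. All 213 such genes of at most 600 bases, with no minimum level, had their lowest share of all counts in RFP replicate 3 (0.101%) and their highest in GFP High replicate 2 (0.153%). In GFP Low, 13 of the 27 were highest in replicate 3, the library in which 21 of 25 replication-dependent histone genes were highest. The 2 sets differed in the rest of GFP Low. In replicate 1, 10 of the 27 short genes were highest, against 0 of the 25 histone genes. The lowest library was replicate 2 for 15 of the 27 short genes and replicate 1 for 15 of the 25 histone genes. The part of transcript length in the spread of the histone genes was not tested.

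**Figure D5:**
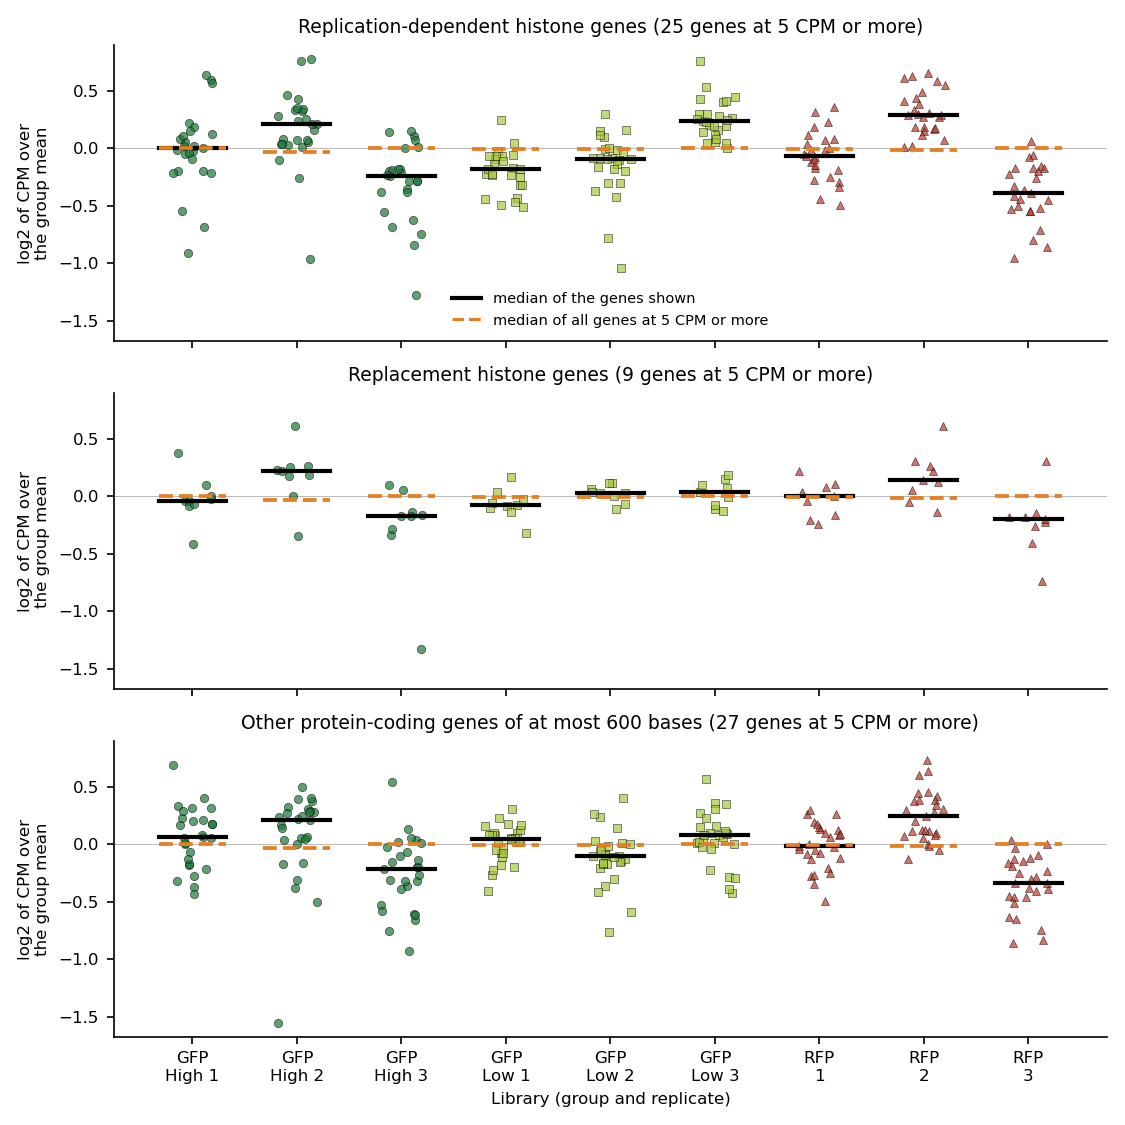
log2 of the CPM of each gene over the mean of its group (pseudocount 0.5 CPM), by library, for genes at 5 CPM or more. The panels hold replication-dependent genes, replacement genes and, of the genes outside the histone list, protein-coding ones of at most 600 bases. The medians in RFP replicate 3 are -0.39, -0.20 and -0.33, and the median of all genes (dashed) is 0.01.

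Copies of histone genes share sequence, which limits values of single genes. Of all 100-base stretches in the annotated transcripts of a replication-dependent gene, a median of 67.8% occur in no other gene, and for 22 of the 61 genes under 50% do. For replacement genes the median was 95.6%. H1foo and Hist1h1a share none with another gene. Hist1h2bk has 29.2% of its own and Hist1h2ah 10.5%, so that reads of these abundant genes could have been split among copies or left out. All replication-dependent H2A genes, among them Hist1h2aa, Hist1h2ah and Hist1h2ag, overlap a gene on the other strand. So do Hist1h4b, H2afx, H3f3a, H1f0, H2afj, H2afy and H2afy2. Hist1h1e and Hist1h2be overlap each other on the same strand. No source used here states that counting used the strand, and reads of such partners cannot be told apart.

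The machinery that processes histone mRNAs and carries histones was detected in all groups. The list held 35 genes: 12 for processing and turnover of histone mRNA, 21 histone chaperones and 2 other histone genes. All 35 were tested in each comparison, and 0 rose and 0 fell, beside 0.0135%, 0.0197% and 0% of all genes called in GFP High against RFP, GFP Low against RFP and GFP High against GFP Low. An unadjusted p under 0.05 was found for 3 genes of the list (8.57%) when GFP High was set against RFP, beside 4.09% of all genes. It was found for 2 (5.71%, beside 2.62%) with GFP Low against RFP and for 4 (11.4%, beside 3.77%) between the green groups. Slbp, which binds the stem-loop, had the most counts of the list, with 3275 ± 498 CPM across GFP High, 2931 ± 80.3 across GFP Low and 2853 ± 428 across RFP (SD, n = 3). Npm2, the oocyte nucleoplasmin that stores H2A and H2B, had 2063 ± 249, 1870 ± 167 and 1784 ± 70.5 CPM in the same order.

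The smallest p-values in the list belonged to chaperones in the comparisons with GFP High. Nap1l1, a chaperone of H2A and H2B, had a log2 fold change of -0.33 (SE 0.10) in GFP High against RFP, with all 3 libraries below those of RFP. Atrx, which works with Daxx in placing H3.3, had -0.28 (SE 0.09), and Npm2 had 0.22 (SE 0.09). In GFP High against GFP Low, Asf1b, a chaperone of H3 and H4, had 0.47 (SE 0.14), Chaf1b, a subunit of the assembly factor CAF-1, 0.65 (SE 0.27) and Nap1l1 -0.24 (SE 0.10). In GFP Low against RFP, Cstf2, a subunit of the cleavage machinery, had 0.32 (SE 0.13), Lsm11, of the U7 particle that cuts histone mRNA, -0.50 (SE 0.23) and the linker histone gene H1fx -0.35 (SE 0.18). Over the list the medians were -0.04 for GFP High and -0.02 for GFP Low against RFP, and -0.06 between the green groups.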

How the data were processed

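Counts, FPKM and comparisons were deposited by the authors in 3 tables, 1 per pair of groups. The submitters' processing notes name fastp, HISAT2 2.0.5, featureCounts 1.5.0-p3 and DESeq2 1.20.0 and the build mm10. RNA was selected on oligo-dT and primed with random hexamers, per the labels' protocols. The read counts per gene, per the file headers, were the input of every test and of CPM. The authors' FPKM values were set beside levels per kilobase. The signal column deposited by the authors, which is the count over a size factor, was not used. The authors' log2 fold changes and p-values are quoted only where their table is named. A gene missing from a table was set to 0 (178 genes), and counts did not differ between tables.

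Each pair of groups was fitted on its 6 libraries with edgeR 4.0.16 (R 4.3.3; filterByExpr, TMM, quasi-likelihood, Benjamini-Hochberg over all genes tested, threshold 0.05). SE is the log2 fold change over the square root of F. The fit was tested on simulated data. Alternatives used DESeq2 1.42.0 and limma 3.58.1. Named genes are replacement genes at 1 CPM or more, the 12 highest replication-dependent genes per kilobase, the germ-cell genes Hist1h1t, Hist1h2aa and Hist1h2ba, and the 6 smallest p-values per comparison (3 in the list of processing genes and chaperones). Members and lists were chosen with earlier results of these data known. Motifs were searched in GENCODE M21 transcripts and RefSeq promoters, and positions of all 72 genes are the same in M21. Reads carry no molecular identifiers, so limits from counts cover counting error only.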

Additional observations from a re-analysis of the deposited data

How the results depend on the processing

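The number of histone genes called was 0 in each comparison and 0 under 13 of 14 alternatives, among them DESeq2, limma-voom, other scalings, all 9 libraries in one fit and each library left out in turn. With no filter on low counts it was 1 in each comparison: H1foo in both comparisons with GFP High and Hist1h2bq in GFP Low against RFP. Over all genes, 2, 3 and 0 were called in GFP High against RFP, GFP Low against RFP and between the green groups. In the same order the numbers were 12, 10 and 4 with DESeq2, 1, 1 and 0 with limma-voom, 16, 34 and 16 with no filter and 4, 3 and 0 with the replicate block. For histone genes, with the replicate block it was 0 in each comparison. Same-numbered libraries correlated at -0.106 to 0.120, so the numbers were not taken as pairs. Over the 33 named genes there were 98 fold changes and 1372 values under alternatives. Of these, 1304 lay within 1 SE of the reported value, 65 farther away and 3 were called. The sign differed in at least 1 alternative for 47 of the 98 and in 78 values, all of estimates that did not pass. The mean share of replacement genes in GFP Low, 0.265% of all counts, was 0.285% of protein-coding counts, a larger step than the SD of 0.0112. All 33 named levels per kilobase lay within 1 SD of the deposited FPKM. FPKM is itself a count over gene length and library size, so this is not an independent check. Depth limits genes below about 1 CPM, and 3 libraries a group limit all tests.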
